A study of Salmo salar with 54 samples.

Results

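The genes described are pim2, smad9, foxred1, bcl2l13 and h1-10 of Atlantic salmon (Salmo salar), 5 of the 18901 genes in the table. They were picked by identifier (GeneID:100194767, GeneID:106563856, GeneID:100196823, GeneID:106561371 and GeneID:106565554) because earlier work on these libraries had found them among the few genes higher at low doses of arsenic. Their low-dose values are therefore given as a description with no test. The cells were primary hepatocytes, liver cells freshly isolated from 6 male fish and grown on a 3-dimensional scaffold. Each fish's cells were kept for 48 h with arsenite (AsIII, inorganic trivalent arsenic) at 0.1, 1 or 3 µM, or with arsenosugar glycerol (AsSug, an organic form in which arsenic is bound to a sugar) at 5, 10, 50 or 250 µM. Each compound had its own plates and its own control, so the 9 groups hold 6 libraries each, 1 per fish, and 54 in all. All groups shared the donors, the medium with serum and the scaffold, and the donors were of a single sex. The labels give a 1 mM stock for both compounds, so a higher dose of a compound needs a larger volume of stock. They do not give whether the controls received the same volume of diluent.

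The 5 genes belong to different branches of cell physiology, and their roles are known mainly from mammals. PIM kinases such as pim2 are serine/threonine kinases that are regulated chiefly through how much of their mRNA and protein is made; cytokine signals through JAK and STAT proteins induce them, and they favour survival and translation, among other ways by phosphorylating BAD. SMAD9, also called SMAD8, is a receptor-regulated SMAD of the bone morphogenetic protein (BMP) branch, which in the liver controls the iron hormone hepcidin. FOXRED1 is a mitochondrial protein needed to assemble respiratory complex I. BCL2L13 is a member of the BCL2 family in the outer mitochondrial membrane and a receptor for mitophagy, the removal of mitochondria. H1-10 is a replication-independent linker histone, a protein that binds DNA between nucleosomes.

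The unit throughout is normalised reads, that is gene read counts divided by a size factor per library, and a difference is given on the log2(value + 1) scale. Libraries outside the 250 µM group held 8.79 to 24.0 M reads, and those at 250 µM held 0.898 to 5.38 M with size factors of 0.106 to 0.590. The 250 µM libraries also carry their own number series in the header, and what these numbers stand for is unknown. The labels set the RNA integrity of these libraries apart without a value in the sources used here. Dose, depth, RNA quality and whatever the number series marks therefore cannot be told apart in that group. The library of fish 1 at 0.1 µM AsIII stood apart. It was far from the rest of its group by Dixon's criterion for 17.1% of all genes. That criterion compares the gap to the next value with the range of the group. For any other library the share was at most 3.70%. At 8.79 M reads the library of fish 1 was also the shallowest of the 48 outside 250 µM. Results on 0.1 µM are given with and without it. Hepatocyte markers were high in every group but not constant. The 9 measured genes, such as apoa1 and tfa, summed to 694819 to 877414 normalised reads in AsIII controls, 480231 to 702618 at 1 µM and 518929 to 661140 at 3 µM, and 6 of the 9 were called lower (limma adjusted p below 0.05) at each of these doses. Their sums were 637904 to 870045 in AsSug controls and 197695 to 607453 at 250 µM, where 6 were called lower and 3 higher. The 4 measured genes of 7 listed stellate and fibroblast markers summed to 319 to 678 normalised reads in AsIII controls. Their sums were 1005 to 1499 at 1 µM and 1647 to 2148 at 3 µM. At 3 µM 2 of these genes were called higher and 1 lower, with a list median of 0.35 on the log2 scale. The 3 measured of 6 listed macrophage and granulocyte markers went from 2532 to 3251 in controls to 1469 to 1935 at 3 µM. That sum hides members that differ: at 3 µM cd68 was lower (-0.82 on the log2 scale), while mpeg1.1 (1.11) and lyz (0.60) were higher. The 2 measured endothelial markers summed to 147 to 230.1 in AsIII controls and 409 to 547 at 3 µM, with esamb higher (1.401) and kdr lower (-1.13). In the 250 µM AsSug group the stellate and macrophage sums were 157 to 250.5 and 651 to 1607, against 310 to 723 and 2537 to 3083 in the AsSug control. There the erythrocyte marker rhag held 509 to 729 normalised reads, against 252 to 365. At 0.1 µM AsIII the hepatocyte sums were 708377 to 1.05e+06 and the macrophage and granulocyte sums 2619 to 6166. Hepatocyte sums at 5, 10 and 50 µM AsSug were 650581 to 930749, 644857 to 814304 and 680205 to 799889. No marker gene was called at these low doses. The 2 measured cholangiocyte markers summed to 2847 to 3527 in AsIII controls, 2280 to 2731 at 1 µM and 3039 to 3373 at 3 µM. Here too the sum hides a split: at 3 µM jag1b was called higher (1.04 on the log2 scale) and anxa4 was not called (0.007). At 250 µM AsSug jag1b was higher (2.69) and anxa4 lower (-0.43). None of the 6 lymphocyte markers was found by symbol, and only 6224 of the 18901 genes carried a symbol. The part these cells had in the results below was not tested. In such bulk libraries, fewer cells of a type and less RNA per cell cannot be told apart.

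All 5 genes passed the low-value filter in every fit. The fewest reads of any of them in a library outside 250 µM was 74, for pim2. At 250 µM the fewest was 18, also for pim2.

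**Figure D1:**
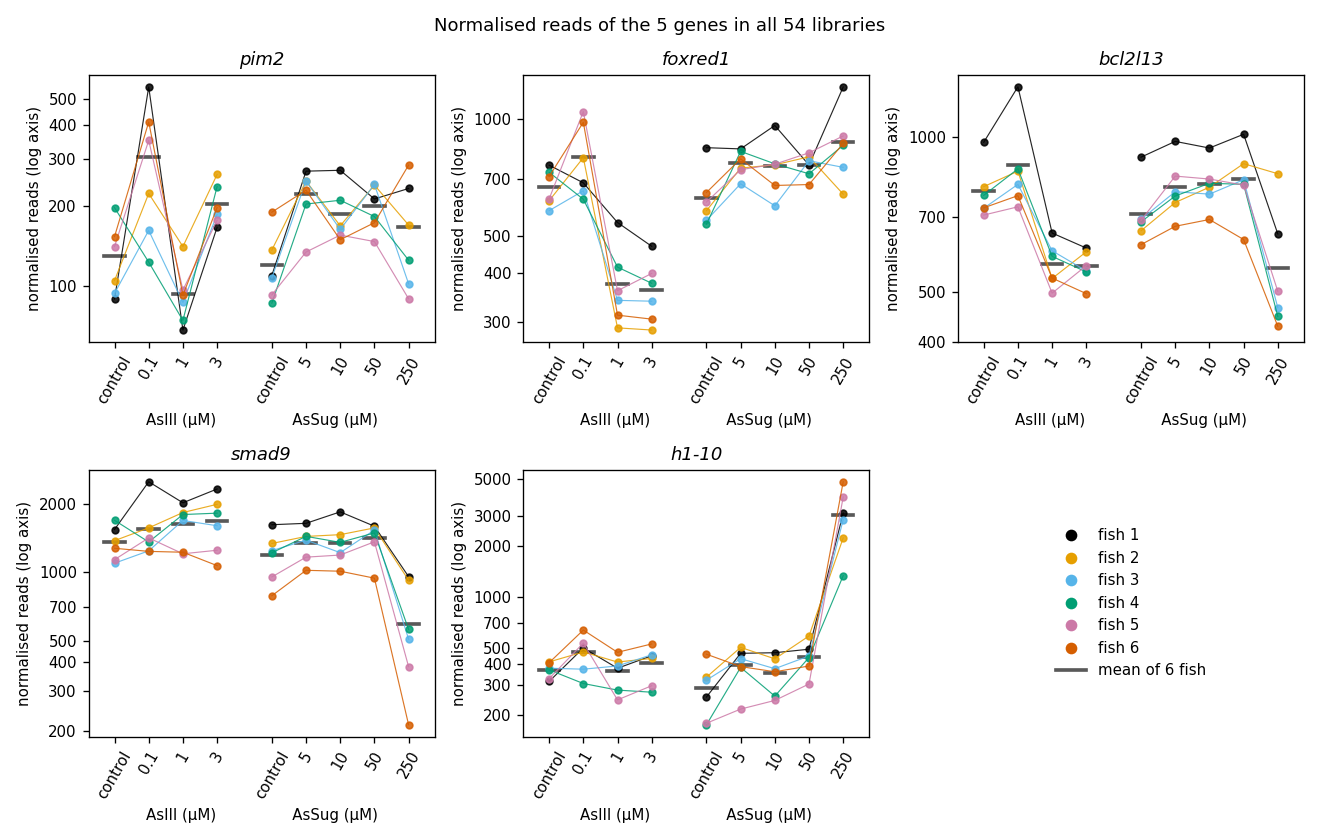
Normalised reads (log axis) of pim2, foxred1, bcl2l13, smad9 and h1-10 against the dose of AsIII and AsSug in µM; each point is 1 library, lines join libraries of 1 fish on 1 compound's plates, and grey bars are means of 6 fish. foxred1 and bcl2l13 drop at 1 and 3 µM AsIII, and h1-10 goes from a mean of 287 in the AsSug control to 3040 at 250 µM.

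At 5, 10 and 50 µM AsSug all 5 genes had mean levels above the AsSug control, with pim2 showing the largest log2 differences. pim2 ranged from 86.5 to 189 normalised reads in the control, with a median of 109. It ranged from 134 to 269 at 5 µM with a median of 238, from 149 to 271 at 10 µM with a median of 166, and from 147 to 240.2 at 50 µM with a median of 197. The dosed ranges all overlapped the control range: the control of fish 6 was the highest control and exceeded the lowest dosed library at each dose. Its log2 difference from the control was 0.89 (SE 0.14) at 5 µM, 0.64 (SE 0.14) at 10 µM and 0.75 (SE 0.14) at 50 µM. These place it 15th, 29th and 20th from the highest among 18818 genes. The gene was chosen as a low-dose responder, so these ranks are no independent result.

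h1-10 had the next largest differences. Its normalised reads ran from 175 to 458 in the AsSug control with a median of 289, from 217 to 503 at 5 µM with a median of 409, from 244 to 467 at 10 µM with a median of 368 and from 305 to 587 at 50 µM with a median of 443. The ranges overlapped at each dose, and fish 6 had the highest control value. The log2 differences were 0.50, 0.35 and 0.68 (SE 0.12 each).

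The other 3 genes differed by smaller amounts. foxred1 had mean normalised reads of 628 ± 114 (SD, n = 6) in the control and 770.4 ± 58.99, 755 ± 122 and 760.2 ± 52.1 at 5, 10 and 50 µM, with log2 differences of 0.31, 0.27 and 0.29 (SE 0.07 each). smad9 had 1194 ± 293 in the control and 1349 ± 222, 1349 ± 289 and 1416 ± 246 at the same doses, with log2 differences of 0.20, 0.19 and 0.26 (SE 0.06 each). bcl2l13 had 708 ± 104 in the control and 797 ± 104, 809 ± 84.3 and 828 ± 123, with log2 differences of 0.17, 0.20 and 0.22 (SE 0.05 each). Between 5, 10 and 50 µM the means of each of the 5 genes differed by less than the larger SD of the groups compared. That SD is between fish and ignores the pairing by fish, so it does not show that the doses are alike. For h1-10 the log2 difference from the control was 0.35 at 10 µM and 0.68 at 50 µM, with the 50 µM value above the 10 µM value in every fish. Differences between these doses were not tested. Over the whole table the adjusted p of limma was below 0.05 for 0.106% of genes at 5 µM, 0.0159% at 10 µM and 0.563% at 50 µM. Without the fish block limma called 0 genes at each of these doses (618, 482 and 1003 at an unadjusted p below 0.05). No calls are given for the 5 genes here, since they were chosen as low-dose responders. The sources used here do not say which low-dose contrasts chose them, so all are treated as used.

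**Figure D2:**
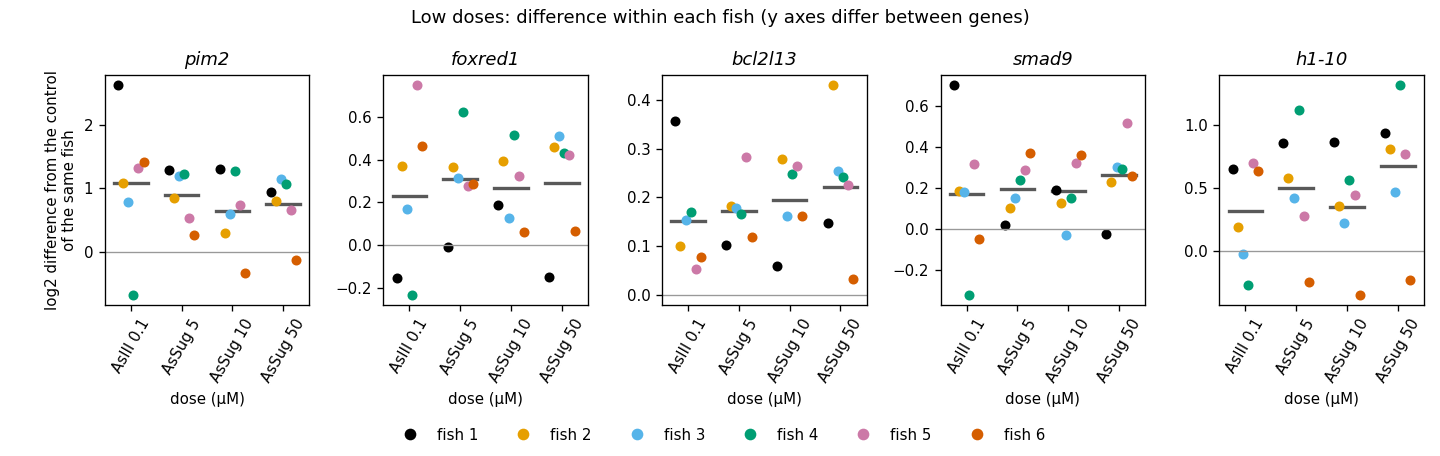
Log2 difference of each low dose from the control of the same fish and compound for the 5 genes; each point is 1 fish and grey bars are means of 6 fish, and the y axes differ between genes. All 18 AsSug points of bcl2l13 lie above 0, and fish 6 lies below 0 for h1-10 at all 3 AsSug doses.

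Within fish, the differences at 5, 10 and 50 µM AsSug were mostly above 0. Of 18 pairs of fish and dose, the dosed library was higher in 18 for bcl2l13, in 16 each for pim2, foxred1 and smad9, and in 15 for h1-10. These pairs share 6 control libraries and are not independent. The exceptions came from few fish: fish 6 gave all 3 of those for h1-10, with log2 differences of -0.24, -0.34 and -0.23, and both of those for pim2, with -0.34 at 10 µM and -0.13 at 50 µM. The AsSug control of fish 6 held 189 normalised reads of pim2 and 458 of h1-10, the highest of the 6 controls for both genes. Fish 1 gave both exceptions for foxred1, with -0.01 at 5 µM and -0.15 at 50 µM, and it also had the highest control value of that gene. Those for smad9 came from different fish, with -0.03 for fish 3 at 10 µM and -0.02 for fish 1 at 50 µM. Across the 24 AsSug libraries up to 50 µM, dose took 53.5% of the variance of log2 values for pim2 and 36.6% for foxred1. It took 29.2% for h1-10, 20.3% for bcl2l13 and 11.01% for smad9, against a median over all genes of 8.57%. Fish took 71.7% for bcl2l13, against a median over all genes of 40.4%. These libraries are treated as used in choosing the genes, so the dose shares are no independent result.

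At 0.1 µM AsIII the mean of each gene was also above that of the AsIII control, with a wider spread. pim2 ranged from 89.7 to 197 normalised reads in the AsIII control with a median of 123 and from 123 to 556 at 0.1 µM with a median of 287. It was higher in 5 of 6 fish, and the ranges overlapped because fish 4 went from 197 down to 123. The log2 difference was 1.09 (SE 0.27), or 0.80 without the library of fish 1, which held the 556 normalised reads. For the other genes the log2 difference with and without that library was 0.23 and 0.34 for foxred1, 0.15 and 0.09 for bcl2l13, 0.17 and 0.09 for smad9, and 0.32 and 0.30 for h1-10. bcl2l13 was higher than the control in 6 of 6 fish and foxred1, smad9 and h1-10 in 4 of 6 each. Over the whole table limma called 0.0106% of genes at this dose.

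The higher doses were tested: 1 and 3 µM AsIII against the AsIII control, 3 against 1 µM AsIII, and 250 µM AsSug against the AsSug control. The contrasts against a control share that control's libraries with the low-dose contrasts behind the choice of genes, whereas the difference between 3 and 1 µM AsIII uses neither a control nor a low-dose library. Its SE and p values do use them, since the spread was estimated over all 4 AsIII groups. At 1 µM AsIII, 2 of the 5 genes passed the test, both lower, against 57.0% of all genes called and 27.3% called lower. At 3 µM AsIII 4 of 5 passed, 2 in each direction, against 71.1% of all genes. Between 3 and 1 µM 1 of 5 passed, higher at 3 µM, against 52.2% of all genes and 27.8% called higher. At 250 µM AsSug 4 of 5 passed, 2 in each direction, against 63.2%. Most measured genes differed at each of these doses, so counts over 5 genes say nothing particular about them, and each gene is described on its own. Another scaling shifted the split of calls over all genes: with library totals in place of the authors' size factors, 33.9% of calls between 3 and 1 µM AsIII were higher rather than 53.2%, and 56.8% at 250 µM AsSug rather than 42.2%. The median log2 difference over all genes moved with it, from -0.20 to 0.10 at 250 µM AsSug, from -0.02 to -0.14 at 3 µM AsIII and from 0.03 to -0.16 between 3 and 1 µM AsIII.

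**Figure D3:**
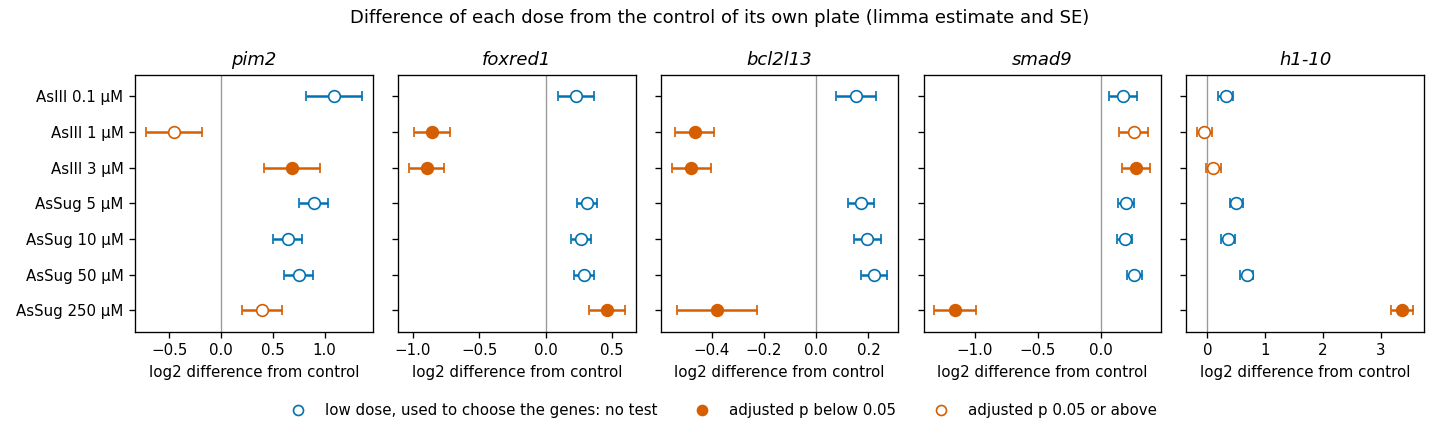
Log2 difference from the control of the same plates (x axis, limma estimate with SE) for 7 doses and the 5 genes; blue open points are low doses without a test, filled orange points passed an adjusted p of 0.05 and open orange points did not. foxred1 and bcl2l13 lie near -0.9 and -0.5 at 1 and 3 µM AsIII, and pim2 lies at -0.45 at 1 µM and 0.68 at 3 µM.

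pim2 was higher at 3 µM than at 1 µM AsIII. Its normalised reads were 93.4 ± 25.6 at 1 µM, with a range of 68.7 to 141, and 204 ± 37.3 at 3 µM, with a range of 166 to 262, against 129.96 ± 41.6 in the control. The 1 µM and 3 µM ranges did not overlap, while both overlapped the control. At 1 µM the log2 difference from the control was -0.45 (SE 0.27, limma adjusted p = 0.161), lower in 5 of 6 fish, with a 95% interval of -1.02 to 0.11. At 3 µM pim2 rose by 0.68 (SE 0.27, limma adjusted p = 0.0292), higher in 6 of 6 fish. That call was lost without fish 2 (log2 difference 0.56, limma adjusted p = 0.108) or without fish 3 (0.63, limma adjusted p = 0.0856), and with DESeq2 (0.65, adjusted p = 0.0594). From 1 to 3 µM pim2 rose by 1.14 (SE 0.27, limma adjusted p = 0.00135), a 2.20-fold difference seen in 6 of 6 fish, and it was past the threshold in each of the 17 settings of the analysis, the reported one included. Under 250 µM AsSug it ranged from 89.8 to 284 normalised reads on 18 to 119 reads, with a log2 difference of 0.40 (SE 0.19, limma adjusted p = 0.0879). The value passed the threshold under TMM factors (0.49, adjusted p = 0.0401), library totals (0.69, adjusted p = 0.00599), edgeR (0.51, adjusted p = 0.0303) and DESeq2 (0.49, adjusted p = 0.0459).

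The other PIM kinase genes found by symbol were pim1 and pim3. pim3 went from 238 ± 19.4 normalised reads in the AsIII control to 506 ± 167 at 1 µM and 645 ± 163 at 3 µM, and rose by 1.04 and 1.402 on the log2 scale (SE 0.13 each, limma adjusted p = 4.39e-07 and 1.63e-09). pim1 had a log2 difference of 0.36 at 1 µM AsIII (SE 0.22, limma adjusted p = 0.179). It rose at 3 µM by 1.08 (SE 0.22, limma adjusted p = 1.70e-04), and from 1 to 3 µM by 0.73 (SE 0.22, limma adjusted p = 0.00906). At 5, 10 and 50 µM AsSug, where pim2 had log2 differences of 0.64 to 0.89, those of pim1 were 0.30, 0.34 and 0.27 and those of pim3 were -0.02, 0.07 and 0.01.

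**Figure D4:**
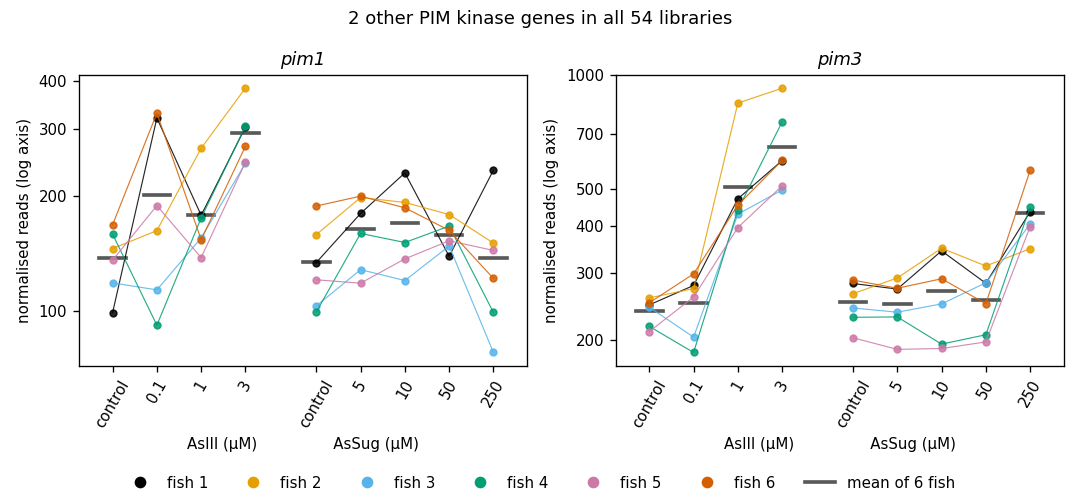
Normalised reads (log axis) of pim1 and pim3 against the dose of AsIII and AsSug in µM; each point is 1 library, lines join libraries of 1 fish and grey bars are means of 6 fish. pim3 stays near 250 normalised reads up to 50 µM AsSug and is higher at 1 and 3 µM AsIII, with means of 506 and 645.

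Of the 17 measured genes of the PIM and JAK-STAT list, 5 rose and 5 fell at 1 µM AsIII, and 11 rose and 3 fell at 3 µM, with list medians of 0.01 and 0.58 on the log2 scale against -0.01 and -0.02 over all genes. Over all genes 29.8% rose and 27.3% fell at 1 µM, 36.0% rose and 35.1% fell at 3 µM, and 26.7% rose and 36.5% fell at 250 µM AsSug, and the counts of each list below are to be read against these shares. The genes with the largest changes at 3 µM were bada, a BAD gene and PIM substrate in mammals (2.40), il6ra, the interleukin-6 receptor (-1.50), cish, a STAT-induced inhibitor of cytokine signalling (1.49), pim3 (1.402) and the kinase gene jak1 (1.11). From 1 to 3 µM 11 rose and 2 fell, among them pim2, badb (1.02) and jak1 (0.84) upward and the transcription factor gene myc downward (-0.92). In cells given 250 µM AsSug 5 rose and 6 fell, with bada (-1.59) and myc (-1.56) lower and stat5a, a JAK target (1.396), higher. Those counts were 8 and 3 with library totals. The same scaling gave 6 rises and 5 falls at 1 µM AsIII, 9 and 4 at 3 µM, and 8 and 2 from 1 to 3 µM.

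smad9 was the gene of the 5 in which fish took the largest share of the variance. In the AsIII libraries, fish took 65.8% of the variance of its log2 values and dose took 10.6%. The medians over all genes there were 12.8% for fish and 60.8% for dose. Up to 50 µM AsSug the shares for smad9 were 80.8% and 11.01%. Medians over all genes on those AsSug plates were 40.4% for fish and 8.57% for dose. Its normalised reads ranged from 1097 to 1695 in the AsIII control with a median of 1328, from 1207 to 2026 at 1 µM with a median of 1745 and from 1070 to 2331 at 3 µM with a median of 1714. These ranges overlapped throughout. At 1 µM the log2 difference was 0.26 (SE 0.11, limma adjusted p = 0.0546), higher in 5 of 6 fish, and without the library of fish 1 at 0.1 µM in the fit the same 0.26 had a limma adjusted p = 0.0202. At 3 µM smad9 rose by 0.28 (SE 0.11, limma adjusted p = 0.0313), with fish 6 lower. That call was lost without fish 1, 2 or 3 (0.21 to 0.23, limma adjusted p = 0.0649 to 0.131), without the fish block (limma adjusted p = 0.184) and with library totals (0.16, adjusted p = 0.129).

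With 250 µM AsSug smad9 was lower in 6 of 6 fish. It ranged from 212 to 957 normalised reads with a median of 533, against 788 to 1621 with a median of 1232 in the AsSug control. Its groups overlapped because fish 1 and 2 kept 957 and 923 normalised reads, more than the control of fish 6. The gene fell by 1.15 on the log2 scale (SE 0.17, limma adjusted p = 2.39e-05), or 0.95 below the median of all genes, and the call held in each of the 16 settings tried.

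Among the 12 measured genes of BMP and SMAD signalling, 3 rose and 3 fell at 1 µM AsIII and 7 rose and 5 fell at 3 µM, with list medians of -0.04 and 0.26, beside 57.0% and 71.1% of all genes called. acvr1l, an activin and BMP receptor gene, had the largest fall (-2.18 and -2.58). id2a, an ID gene of the kind that BMP signals induce, rose at both doses (1.86 and 1.15), and the inhibitory SMAD gene smad6b rose by 0.43 and 0.72. smad4a, a copy of the common partner SMAD, fell at both (-0.46 and -1.52), and hamp, the hepcidin gene, fell at 3 µM (-1.06, limma adjusted p = 4.10e-05). Of the 12, 2 rose at 250 µM AsSug, both inhibitory SMAD genes, with smad6b at 2.74 and smad7 at 1.58. The 3 that fell were id2a (-1.53), smad9 and smad5 (-0.75), the last being another BMP-branch SMAD. With library totals 4 rose and 1 fell at 250 µM AsSug, while 4 rose and 3 fell at 1 µM AsIII and 5 rose and 5 fell at 3 µM.

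foxred1 had lower levels at the 2 higher AsIII doses in every fish. Its normalised reads ranged from 581 to 761 in the AsIII control with a median of 667, from 289 to 541 at 1 µM with a median of 351 and from 286 to 470 at 3 µM with a median of 358. Neither dosed range reached the control range, and the 2 dosed ranges overlapped. The gene fell by 0.85 at 1 µM (SE 0.13, limma adjusted p = 1.16e-05) and by 0.90 at 3 µM (SE 0.13, limma adjusted p = 3.15e-06), which leaves 0.553 and 0.537 of the control level. The 2 doses could not be told apart at this precision, with a log2 difference of -0.04 (SE 0.13, limma adjusted p = 0.811) and a 95% interval of -0.32 to 0.23. Under 250 µM AsSug foxred1 ranged from 640.2 to 1211 normalised reads with a median of 861, against 536 to 844 with a median of 596 in the control. It rose by 0.46 (SE 0.13, limma adjusted p = 0.00677), higher in 6 of 6 fish although the ranges overlapped. Both AsIII calls held in each of 17 settings and the 250 µM call in each of 16.

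Of the 14 measured complex I assembly genes, 2 rose and 6 fell at 1 µM AsIII and 3 rose and 8 fell at 3 µM, with list medians of -0.32 and -0.52 on the log2 scale. The 8 called at 1 µM are at the share of all genes called, 57.0%, and 71.1% of all genes were called at 3 µM. foxred1 fell together with tmem70 (-0.87 and -1.95), known in human cells for the assembly of ATP synthase as well, and with the assembly factor genes ndufaf7 (-0.72 and -1.66) and ndufaf3 (-0.45 and -0.57). tmem126a rose at both doses (0.47 and 0.72). Between 3 and 1 µM, where foxred1 did not pass the test, 5 genes of the list fell and 2 rose, beside 52.2% of all genes called. The largest falls were those of tmem70 (-1.08), ndufaf7 (-0.94) and timmdc1 (-0.73). timmdc1 had not passed the test at 1 µM (-0.20, limma adjusted p = 0.290). Under 250 µM AsSug 7 fell and 3 rose, with a list median of -0.69 against -0.20 over all genes. The 3 that rose were foxred1, ndufaf3 (0.69) and aifm1 (0.66), while tmem70 (-2.16) and ecsit (-2.14) had the largest falls. With library totals 2 rose and 5 fell at 1 µM AsIII, and 1 rose and 9 fell at 3 µM. Between those doses 0 rose and 5 fell, and at 250 µM AsSug 3 rose and 6 fell.

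bcl2l13 had the smallest standard errors of the 5 genes in the AsIII fit and fell at both higher AsIII doses. It ranged from 705 to 974 normalised reads in the AsIII control with a median of 749, from 498 to 650.5 at 1 µM with a median of 559 and from 497 to 608 at 3 µM with a median of 556. Neither dosed range overlapped the control. The gene fell by 0.46 at 1 µM (SE 0.08, limma adjusted p = 1.87e-05) and by 0.48 at 3 µM (SE 0.08, limma adjusted p = 6.97e-06), in 6 of 6 fish at both, and both calls held in each of 17 settings. The 2 doses differed by -0.01 (SE 0.08, limma adjusted p = 0.901), with a 95% interval of -0.17 to 0.14. In the reference annotation bcl2l13 overlaps bida, a gene of the BH3-only protein BID, and the sources used here do not say whether the counting used strand. bida held 3 to 56 reads per library and did not pass the test at any tested dose, with log2 differences of -0.24 at 1 and 3 µM AsIII.

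With 250 µM AsSug bcl2l13 was lower in 5 of 6 fish, from 429 to 847 normalised reads with a median of 484 against 618 to 912 with a median of 686 in the control. Fish 2 was the exception, going from 657 to 847. The gene fell by 0.38 (SE 0.15, limma adjusted p = 0.0416), which is 0.18 below the median of all genes. The call was lost with TMM factors (-0.29, adjusted p = 0.125), library totals (-0.08, adjusted p = 0.687), edgeR (-0.30, adjusted p = 0.123), DESeq2 (-0.32, adjusted p = 0.0902), without the fish block (limma adjusted p = 0.0649) and without any of fish 1, 3, 4, 5 or 6, where the limma adjusted p was 0.0749 to 0.115.

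Of the 20 measured genes of the BCL2 family and mitophagy, 8 rose and 4 fell at 1 µM AsIII and 9 rose and 4 fell at 3 µM, with list medians of 0.04 and 0.21, near the 57.0% and 71.1% of all genes called. bada (1.69 and 2.40) and bcl2l1, the gene of the survival protein BCL-XL (0.65 and 1.37), rose at both doses. baxb, a gene of the pore-forming protein BAX (-0.92 and -1.34), and pink1, the kinase that starts PINK1-Parkin mitophagy (-0.32 and -0.67), fell at both. ulk1a, a kinase gene of autophagy initiation, rose at both (0.64 and 1.44). In cells given 250 µM AsSug 5 rose and 7 fell. There pink1 (1.31) and bbc3, the gene of the BH3-only protein PUMA (1.24), were higher, whereas optn, a mitophagy adaptor gene, was lower (-2.38). In AsIII cells optn rose at 1 and 3 µM (1.12 and 0.97). There bbc3 rose at 1 µM (1.05) and was not called at 3 µM (0.14). With library totals 9 rose and 5 fell at 250 µM AsSug, and 8 rose and 6 fell at 3 µM AsIII.

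h1-10 did not pass the test at either higher AsIII dose and showed the largest change of the 5 genes at 250 µM AsSug. In AsIII cells it ranged from 316 to 413 normalised reads in the control, from 246 to 470.0 at 1 µM and from 273 to 527 at 3 µM. The log2 differences were -0.05 at 1 µM (SE 0.13, limma adjusted p = 0.749, 95% interval -0.32 to 0.21) and 0.10 at 3 µM (SE 0.13, limma adjusted p = 0.473, 95% interval -0.16 to 0.37). At 250 µM AsSug it ranged from 1334 to 4787 normalised reads with a median of 2995, on 237 to 2298 reads, against 175 to 458 with a median of 289 in the control. No dosed library reached down to the control range. The gene rose by 3.37 (SE 0.19, limma adjusted p = 1.43e-09), a 10.3-fold difference found in 6 of 6 fish, and stayed between 3.16 and 3.67 in the 16 settings tried. It ranked 196th from the highest of 18756 genes.

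Among the 9 measured genes of linker histones, histone variants and chaperones, 5 rose and 2 fell at 250 µM, with a list median of 0.98, beside 63.2% of all genes called. With library totals 6 rose and 1 fell. ssrp1a, a subunit gene of the histone chaperone FACT (2.31), and macroh2a1, a histone variant gene (1.83), rose as h1-10 did, and the chromatin protein gene hmgb2 (-1.47) and the variant gene h2az2a (-0.69) fell. At 1 µM AsIII 1 rose and 1 fell, and at 3 µM 2 rose and 1 fell, led in both by macroh2a1 (0.63 and 1.28). With library totals 3 rose and 0 fell at 1 µM, and 2 rose and 2 fell at 3 µM.

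**Figure D5:**
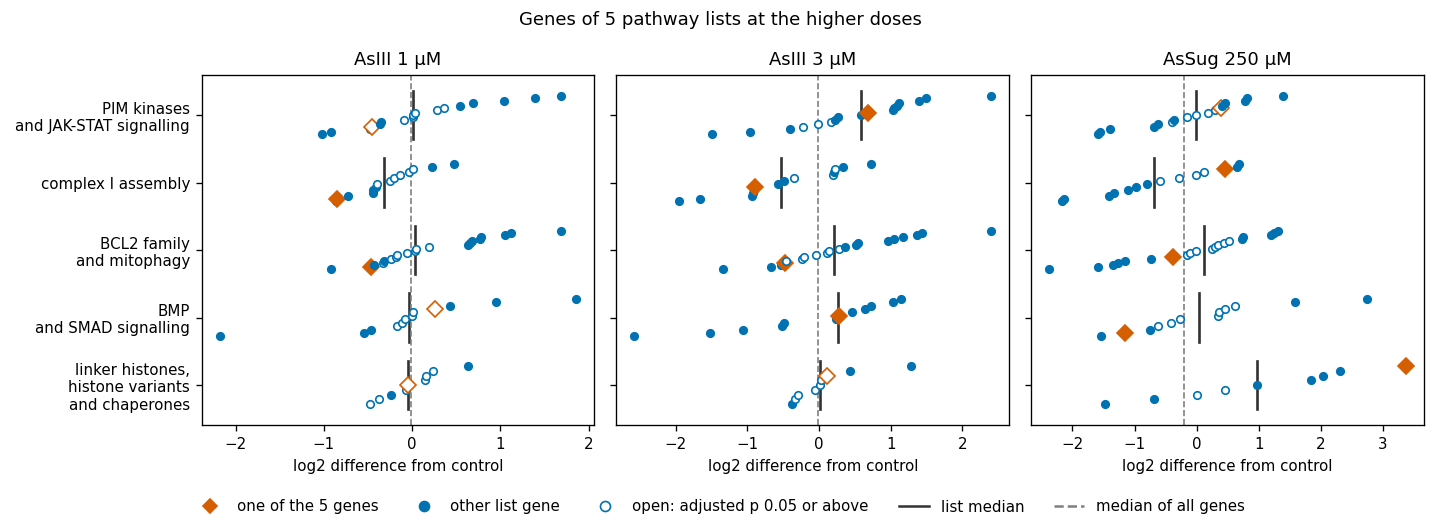
Log2 difference from the control at 1 and 3 µM AsIII and 250 µM AsSug (x axes) for the genes of 5 pathway lists (rows); diamonds are the 5 genes described, filled symbols passed an adjusted p of 0.05, black lines are list medians and dashed lines are medians of all genes. h1-10 lies at 3.37 at 250 µM AsSug, and the complex I assembly genes have medians of -0.32, -0.52 and -0.69 in the 3 panels.

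Over the 9 groups the order of the means differed from gene to gene. This order mixes plates of both compounds without reference to their controls, and the SD between fish ignores the pairing by fish. pim2 was highest at 0.1 µM AsIII (304 ± 165) and lowest at 1 µM AsIII (93.4 ± 25.6), and no neighbours in its order differed by more than the larger of their SDs. foxred1 was highest at 250 µM AsSug (872 ± 192), and the single step beyond the larger SD lay between the AsSug control (628) and 1 µM AsIII (376). bcl2l13 had its single such step between the AsSug control (708) and 1 µM AsIII (567), and the 3 lowest groups, 1 and 3 µM AsIII and 250 µM AsSug, had means of 557 to 567. smad9 was highest at 3 µM AsIII (1679 ± 470), and its single such step lay between the AsSug control (1194) and 250 µM AsSug (590.1). h1-10 had its single such step between 250 µM AsSug (3040 ± 1215) and 0.1 µM AsIII (470.2 ± 117).

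The controls of the 2 compounds came from different plates and carried different header numbers. They differed for each gene, within overlapping ranges. The AsIII control was above the AsSug control in 6 of 6 fish for bcl2l13 (784 ± 99.5 against 708 ± 104), in 5 of 6 for foxred1 (670.0 ± 73.0 against 628 ± 114) and for h1-10 (369 ± 39.9 against 287 ± 108), in 4 of 6 for smad9 and in 2 of 6 for pim2. The mean log2 difference between controls was 0.10 for pim2 and foxred1, 0.15 for bcl2l13, 0.20 for smad9 and 0.44 for h1-10. Beside these stand the low-dose AsSug differences of 0.17 to 0.22 for bcl2l13, 0.19 to 0.26 for smad9 and 0.35 to 0.68 for h1-10. Those of pim2 were 0.64 to 0.89 and those of foxred1 0.27 to 0.31. The part that differences between wells or plates had in the low-dose values was not tested.

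Likeness of pattern was measured as Pearson's r of log2 values over the 48 libraries outside 250 µM, after removing each fish's mean within a compound's plates. It is a description over libraries that share fish and plates. The 48 include the low-dose libraries and controls behind the choice of genes, so likeness between the 5 genes is no independent result. The 5 genes do not form a single pattern. foxred1 and bcl2l13 were most alike (r = 0.83), followed by pim2 and h1-10 (r = 0.68), while smad9 had r = -0.12 with both foxred1 and bcl2l13. Among named genes of the whole table, those most like h1-10 included junb, an AP-1 transcription factor gene (r = 0.69), and pim2. The most like pim2 were cyp39a1, an oxysterol hydroxylase gene (r = 0.83), junb (r = 0.80) and elovl5, a fatty acid elongase gene (r = 0.79). foxred1 was most like cpt1b, a gene of mitochondrial fatty acid import (r = 0.95), s41a2 (r = 0.94) and stea4 (r = 0.94). bcl2l13 was most like tm4sf4 (r = 0.94), enpp6 (r = 0.93) and esr1, the oestrogen receptor gene (r = 0.93). smad9 was most like arpc1a (r = 0.75), pim1 (r = 0.72) and ypel3 (r = 0.68). With the 250 µM libraries included, junb alone remained among these neighbours, for h1-10 (r = 0.96).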

How the data were processed

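RNA of 54 hepatocyte libraries had been sequenced. The authors deposited a signal per gene and library, gene counts divided by a size factor, per the values: division by the smallest step of a column gave whole reads for 100% of values (tolerance 0.1 reads). The submitters' processing notes name HISAT2, featureCounts (Subread) and DESeq2 1.40.2; the sources used here give no genome build, annotation or strand setting. Symbols came from RefSeq by GeneID (18900 of 18901 matched, 6224 with a symbol). Salmon carry duplicated genes, so a symbol stands for a single copy. List and marker genes were searched by symbol alone, so a measured list gene is one found by its symbol.

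Values were tested as log2(value + 1) with limma 3.58.1 in R 4.3.3 (mean trend, two-sided, genes with a value of 10 or more in at least 6 libraries of a fit). A fit held the 4 AsIII groups and another the AsSug control to 50 µM; 250 µM was fitted with its control alone. Benjamini-Hochberg adjustment ran over all genes of a contrast, and calls are adjusted p values below 0.05. Fish was a block in each fit: the labels name the fish, and same-fish libraries correlated more than others (median r 0.234 against -0.043 for AsIII, 0.364 against -0.074 for AsSug to 50 µM, 0.096 against -0.030 at 250 µM). Alternatives changed the pseudocount (0.5, 5), filter, scaling (TMM, library totals), groups fitted, block and tool (edgeR 4.0.16 and DESeq2 1.42.0 on recovered reads) and left out each fish. The AsIII fit without the 0.1 µM library of fish 1 was added after seeing the data. Scripts were tested on simulated data.

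The genes and lists were chosen with earlier results of these data known. Named list genes were called and among the 6 with the largest absolute log2 difference of their list in at least 1 tested contrast; values at other doses stand beside. For likeness, the 3 named genes with the highest r were taken. bida is shown as an overlapping gene. The values of 1 further list gene are not reported here. Reads without molecular identifiers are not independent molecules.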

Additional observations from a re-analysis of the deposited data

Results flagged for a closer look

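foxred1 moved in opposite directions under the highest doses of the 2 compounds: its log2 difference was -0.90 at 3 µM AsIII, lower in 6 of 6 fish, and 0.46 at 250 µM AsSug, higher in 6 of 6 fish. The doses are not matched, each group has its own control, and the difference between the compounds was not tested.

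In 6 of the 45 combinations of gene and group, 1 fish stood far from the other 5 by Dixon's criterion. The criterion is nominally met in about 1 in 20 groups, and combinations that share fish and libraries are not independent. Fish 1 was the high extreme in 5 of the 6 combinations. It held 844 normalised reads of foxred1 in the AsSug control (next highest 647). For bcl2l13 it held 974 in the AsIII control (next 800), 912 in the AsSug control (next 692) and 1248 at 0.1 µM AsIII (next 866). For smad9 it held 2509 at 0.1 µM AsIII (next 1570.3). The 0.1 µM values come from the library that stood apart over the whole table. Fish 6 was the low extreme for smad9 at 50 µM AsSug, with 942 normalised reads against 1363 for the next lowest. Over all genes fish 1 was such a high extreme for 12.1% of genes at 0.1 µM AsIII, 1.75% in the AsSug control and 1.08% in the AsIII control. Fish 6 was such a low extreme for 0.376% of genes at 50 µM AsSug.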

How the results depend on the processing

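All 5 genes had log2 differences above 0 at 0.1 µM AsIII and at 5, 10 and 50 µM AsSug in every setting tried, between 0.05 (bcl2l13, 0.1 µM) and 1.44 (pim2, 0.1 µM without fish 4). The genes were chosen as higher at low doses and each setting reuses the same libraries, so this sign is no independent result. Of 315 repeats of the tested values, 274 kept direction and call, 18 lost the call, 12 gained it and 11 changed the sign of a value that was not called. Causes were not tested, except that leaving out fish reduces the libraries. Fitting the compared groups alone gave calls for pim2 at 1 µM AsIII (-0.45), smad9 at 1 µM (0.26) and h1-10 between 3 and 1 µM (0.16). Library totals gave calls for smad9 at 1 µM (0.33), bcl2l13 between 3 and 1 µM (-0.21) and pim2 at 250 µM (0.69), no call for smad9 at 3 µM (0.16) or bcl2l13 at 250 µM (-0.079), and other signs for h1-10 at 1 µM (0.023), 3 µM (-0.015) and between them (-0.038) and for smad9 between them (-0.17). TMM factors called smad9 at 1 µM (0.26, adjusted p = 0.0493) and pim2 at 250 µM (0.49), and not bcl2l13 (-0.29). edgeR called pim2 at 250 µM (0.51) and not bcl2l13 (-0.30); DESeq2 called pim2 at 250 µM (0.49), and neither bcl2l13 (-0.32) nor pim2 at 3 µM AsIII (0.65). Without the replicate block, smad9 at 3 µM (0.28) and bcl2l13 at 250 µM (-0.38) lost their calls; at the tested doses the block changed no other call of the 5 genes.

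Leaving out libraries gave 0.18 to 0.32 for smad9 at 1 µM AsIII, -0.11 to 0.021 for h1-10 and -0.63 to -0.27 for pim2 at 1 µM, 0.56 to 0.77 for pim2, 0.21 to 0.38 for smad9 and 0.025 to 0.21 for h1-10 at 3 µM, -0.051 to 0.010 for bcl2l13 and -0.016 to 0.064 for smad9 between 3 and 1 µM, and -0.53 to -0.33 for bcl2l13 and 0.26 to 0.49 for pim2 at 250 µM AsSug.

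The number of all genes called at low doses was unstable. At 0.1 µM AsIII, 2 genes were called by limma, 1 without the block, 0 with a pseudocount of 5, TMM factors, library totals, edgeR or the compared groups alone (605 to 2289 at an unadjusted p below 0.05), 13 by DESeq2 and 0 to 8 without 1 fish or library. At 5, 10 and 50 µM AsSug, 20, 3 and 106 were called with the block and 0 at each dose without it (618, 482 and 1003 at an unadjusted p below 0.05). DESeq2 called 34 at 5 µM and 14 at 10 µM, library totals gave 11 at 10 µM, and the compared groups alone gave 34 at 50 µM. Leaving out fish gave 7 to 38, 2 to 15 and 31 to 178, the highest each time without fish 6. At 250 µM AsSug, pim2 rests on as few as 18 reads per library.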
